A study of Mus musculus with 12 samples.

Results

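The small leucine-rich proteoglycans are secreted matrix proteins, each built of a short series of leucine-rich repeats that bind collagen and, in most of the family, of 1 or more sugar chains attached to the core. The 10 genes described here were chosen by name and comprise Bgn, Dcn and Aspn of class I, Lum, Fmod, Prelp, Kera and Omd of class II, and Ogn and Epyc of class III. Each was measured by exactly 1 transcript cluster that carries a single gene symbol, so all 10 were among the 19938 genes tested and none was removed by a filter on low values. RNA was taken from 6 pools of angiogenic and 6 pools of non angiogenic islets of RIP1-Tag2 mice on a C57BL/6 background at 8 weeks of age. In this model the rat insulin promoter drives the SV40 T antigen in beta cells, so the non angiogenic islets also carry the transgene and no islets without it were compared. Pancreata were digested with collagenase, islets were purified on a density gradient and sorted by their appearance, and each pool was hybridised to its own Affymetrix mouse gene array. How many mice stood behind a pool, and whether different pools held different mice, was not given in the sources used here. The p-values therefore rest on the spread from pool to pool, which may be in part technical.

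In connective tissue, decorin (Dcn), lumican (Lum) and fibromodulin (Fmod) bind to the surface of collagen fibrils and regulate their diameter and spacing. Decorin and biglycan (Bgn) carry chondroitin or dermatan sulfate chains, and several class II members carry keratan sulfate or tyrosine sulfate. Released from the matrix, decorin and biglycan bind growth factors and receptors, among them TGF-β and Toll-like receptors, and decorin is known to restrain endothelial cells. In the pancreas these genes are known mainly from fibroblasts, stellate cells and cells of the vessel wall, and not from beta cells.

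All values are log2 levels made by the RMA method. It removes background and brings the arrays that are normalized together to 1 distribution. Whether that was done for all arrays at once was not found in the sources used here. A difference of 1 is a doubling on a scale that compresses weak signals. Array medians lay between 7.30 and 7.38. Levels were compared between the groups gene by gene. Since probes differ in brightness, the order of 2 genes by level was not read, and ratios of genes within an array were used only for their change between the groups. Within each group replicates 1 to 3 and replicates 4 to 6 formed separate sets of arrays, a split seen in these data and not named in the labels. The study describes its profiling as repeated in independent experiments, and whether the sets are those experiments is not given in the sources used here, so n counts arrays and not experiments. Values within each set are given where they matter. Since the split was seen in these data, adjusted p-values from fits with the set as a block may be too small.

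Of the 10 genes, 6 were higher in angiogenic islets, 0 were lower and 4 did not pass (limma, 6 against 6 arrays, two-sided, Benjamini-Hochberg adjusted p under 0.05 with all genes in the adjustment). Over all genes, 3.55% were called higher and 0.948% lower. The genes that rose were Bgn, Aspn, Lum, Fmod, Prelp and Ogn, by 1.77-fold to 2.60-fold, and those that did not pass were Dcn, Omd, Kera and Epyc. The median difference over the 10 genes was 0.86, against -0.02 over all genes. The study itself drew up a list of changed genes from these arrays that holds 7 of the 10, so their direction is not independent evidence. In whole islet RNA, more cells of a type and more RNA per cell cannot be told apart.

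**Figure D1:**
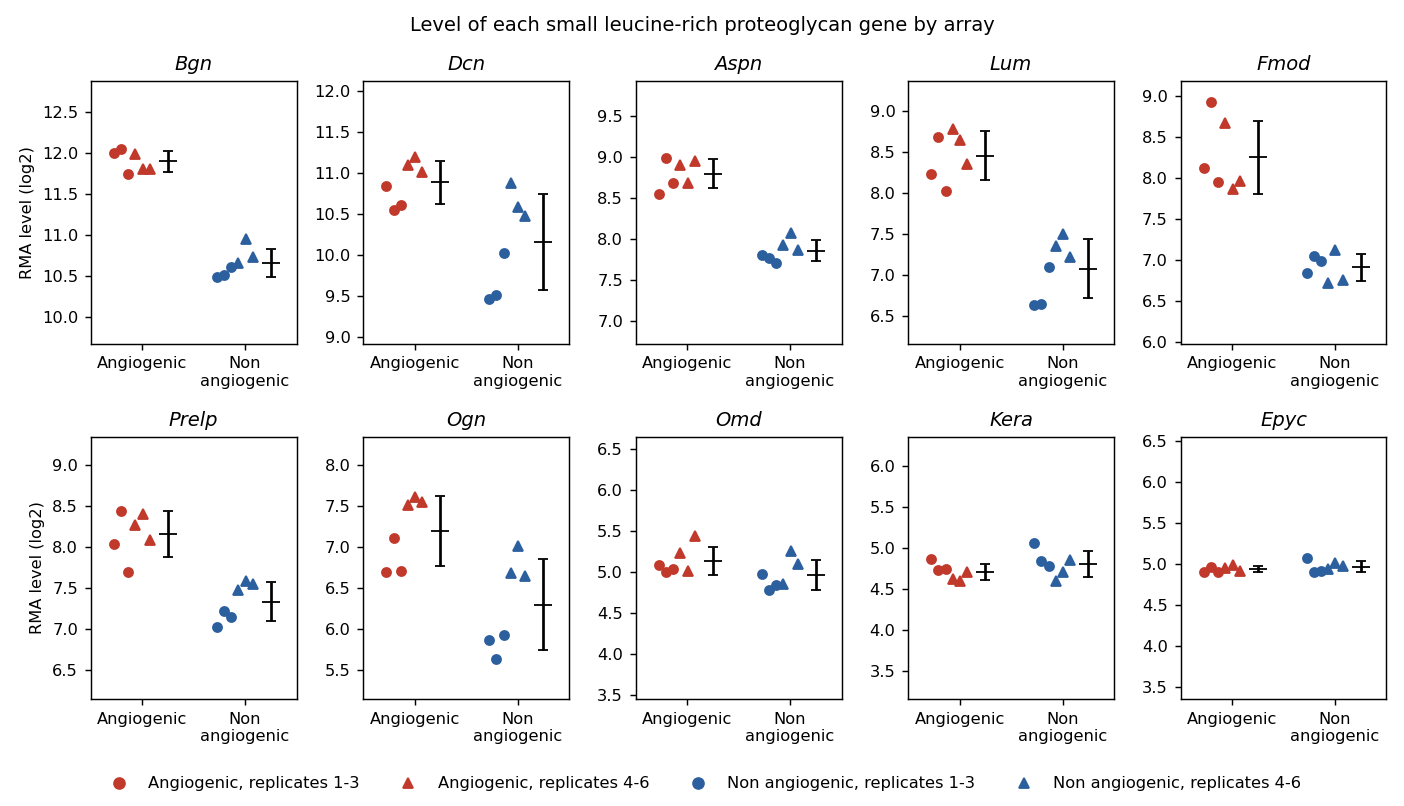
Log2 RMA level (y axis, all panels spanning the same number of log2 units) of each of the 10 genes on each array, angiogenic islets in red and non angiogenic islets in blue, replicates 1 to 3 drawn as circles and replicates 4 to 6 as triangles, with the mean and SD of each group as bars (n = 6). Bgn, Aspn, Lum, Fmod and Prelp have no overlap between the groups, Dcn and Ogn overlap over 12 arrays but not within either set, and Omd, Kera and Epyc lie close together in both groups.

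Among the class I genes, Bgn encodes biglycan, which binds collagen and, in soluble form, Toll-like receptors on macrophages. Its lowest, median and highest levels were 11.75, 11.90 and 12.05 in angiogenic islets, against 10.49, 10.64 and 10.96 in non angiogenic islets. The lowest angiogenic array was thus above the highest non angiogenic array. Bgn averaged 11.90 ± 0.13 in angiogenic and 10.66 ± 0.17 in non angiogenic islets (SD, n = 6 each), a difference of 1.24 ± 0.08 (SE) or 2.36-fold, with an adjusted p of 4.93e-07 from limma, the smallest of the 10. Within the sets it was 1.08 higher in replicates 4 to 6 and 1.40 higher in replicates 1 to 3.

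Aspn encodes asporin, which binds collagen and TGF-β and carries a run of aspartic acid residues in place of sugar chains. It measured 8.55, 8.80 and 8.99 (lowest, median, highest) in angiogenic islets, against 7.72, 7.84 and 8.08 in non angiogenic islets, again without overlap. The difference was 0.94 ± 0.08 (SE), or 1.91-fold, with an adjusted p of 8.22e-06 from limma. It was nearly as large in replicates 4 to 6, at 0.89, as in replicates 1 to 3, at 0.98.

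Dcn encodes decorin, the best known binder of collagen I and of TGF-β in the family. It measured 10.55, 10.92 and 11.20 in angiogenic islets, against 9.46, 10.24 and 10.88 in non angiogenic islets (lowest, median, highest). The ranges overlapped, because the non angiogenic arrays spread over more than 1 log2 unit. Dcn averaged 10.88 ± 0.26 in angiogenic and 10.15 ± 0.59 in non angiogenic islets (SD, n = 6 each). The difference of 0.73 ± 0.22 (SE), or 1.66-fold with a 95% confidence interval of 1.19 to 2.31, did not pass after adjustment (adjusted p = 0.0882, limma). That interval, which is not adjusted for the number of genes, lies above 1, and the missed threshold does not show that Dcn was the same in both groups.

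The spread of Dcn followed the sets of arrays. In replicates 4 to 6, Dcn ran from 11.01 to 11.20 in angiogenic islets and from 10.47 to 10.88 in non angiogenic islets. In replicates 1 to 3, the same ranges were 10.55 to 10.84 in angiogenic and 9.46 to 10.02 in non angiogenic islets. The groups therefore did not overlap within either set, and the overlap over 12 arrays arose between the angiogenic arrays of replicates 1 to 3 and the non angiogenic arrays of replicates 4 to 6. Replicates 4 to 6 were 0.71 above replicates 1 to 3, nearly as much as angiogenic islets were above non angiogenic islets. With the set as a block, the standard error of the Dcn difference was 0.12 in place of 0.22, and the adjusted p was 0.000737 (limma). Fitted alone, replicates 4 to 6 gave 0.46 (adjusted p = 0.0417) and replicates 1 to 3 gave 1.0 (adjusted p = 0.00457), both from limma.

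Among the class II genes, Lum encodes lumican, a keratan sulfate proteoglycan first known from the cornea, where it keeps fibrils thin and evenly spaced. Lum measured 8.02, 8.51 and 8.79 in angiogenic islets, against 6.64, 7.16 and 7.50 in non angiogenic islets (lowest, median, highest), with no overlap. It averaged 8.46 ± 0.30 in angiogenic and 7.08 ± 0.36 in non angiogenic islets (SD, n = 6 each). The difference of 1.38 ± 0.16 (SE), or 2.60-fold, was the largest of the 10 genes in the fit of all 12 arrays (adjusted p = 0.000115, limma). Within replicates 4 to 6 it was 1.24, and within replicates 1 to 3 it was 1.52.

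Fmod encodes fibromodulin, which shares a collagen binding site with lumican. Its levels were 7.87, 8.04 and 8.93 in angiogenic islets, against 6.72, 6.91 and 7.12 in non angiogenic islets (lowest, median, highest). The groups did not overlap. Among the angiogenic arrays, replicate 2 at 8.93 and replicate 4 at 8.67 were above the others, which ran up to 8.12. Fmod averaged 8.25 ± 0.44 in angiogenic and 6.91 ± 0.16 in non angiogenic islets (SD, n = 6 each), a 2.53-fold difference (adjusted p = 0.000147, limma). Unlike Dcn, Lum and Ogn, it was not higher in replicates 4 to 6 than in replicates 1 to 3, the offset between the sets being -0.13.

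Prelp encodes a family member with a basic amino-terminal stretch that binds heparan sulfate and is known for anchoring basement membranes to the connective tissue beneath. Prelp measured 7.70, 8.19 and 8.45 in angiogenic islets, against 7.03, 7.35 and 7.59 in non angiogenic islets (lowest, median, highest). The groups were separated by a narrow gap, and the difference was 0.82 ± 0.13 (SE), or 1.77-fold (adjusted p = 0.00125, limma).

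The other class II genes did not pass. Omd encodes osteomodulin, a keratan sulfate proteoglycan of bone, and measured 4.99, 5.06 and 5.44 in angiogenic islets, against 4.77, 4.91 and 5.25 in non angiogenic islets (lowest, median, highest). The ranges overlapped and the difference was 0.17 ± 0.09 (SE), with a 95% confidence interval of -0.03 to 0.37 (adjusted p = 0.467, limma). Kera encodes keratocan, a proteoglycan of the cornea, and measured 4.60, 4.72 and 4.87 in angiogenic islets, against 4.60, 4.82 and 5.06 in non angiogenic islets. Its difference was -0.10 ± 0.07 (SE), with an interval of -0.25 to 0.06 (adjusted p = 0.645, limma).

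Of the class III genes, Ogn encodes osteoglycin, also called mimecan, which is found in the vessel wall and in bone. It measured 6.69, 7.31 and 7.61 in angiogenic islets, against 5.64, 6.29 and 7.01 in non angiogenic islets (lowest, median, highest). Like Dcn, Ogn overlapped over 12 arrays and not within the sets. In replicates 4 to 6 it ran from 7.51 to 7.61 in angiogenic and from 6.65 to 7.01 in non angiogenic islets, and in replicates 1 to 3 from 6.69 to 7.11 in angiogenic and from 5.64 to 5.92 in non angiogenic islets. The difference over all arrays was 0.90 ± 0.24 (SE), or 1.87-fold, with an adjusted p of 0.0484 from limma, just inside the threshold. That call was lost in 8 of the 12 fits that each left out 1 array, where the adjusted p ran from 0.053 to 0.118 (without non angiogenic replicates 1, 2, 3 or 6, or angiogenic replicates 2, 4, 5 or 6). The offset between the sets, 0.85, was the largest of the 10 genes, and with the set as a block the adjusted p was 6.84e-06 (limma). Epyc encodes epiphycan, known from growth plate cartilage. It measured 4.90, 4.93 and 4.99 in angiogenic islets, against 4.90, 4.95 and 5.07 in non angiogenic islets, and its difference of -0.03 ± 0.04 (SE) did not pass (adjusted p = 0.863, limma).

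Omd, Kera and Epyc, known from bone, cornea and cartilage, gave dim clusters, with means over the 12 arrays at the 11.0, 8.24 and 10.1 percentiles of all gene means. No detection call was made on these arrays, and at such signals a small change may not be measurable. Toward higher levels in angiogenic islets, their confidence intervals reached 1.29-fold for Omd, 1.04-fold for Kera and 1.05-fold for Epyc. These bounds hold for the measured signal, on a scale that compresses weak signals, and set no limit on the change in RNA.

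**Figure D2:**
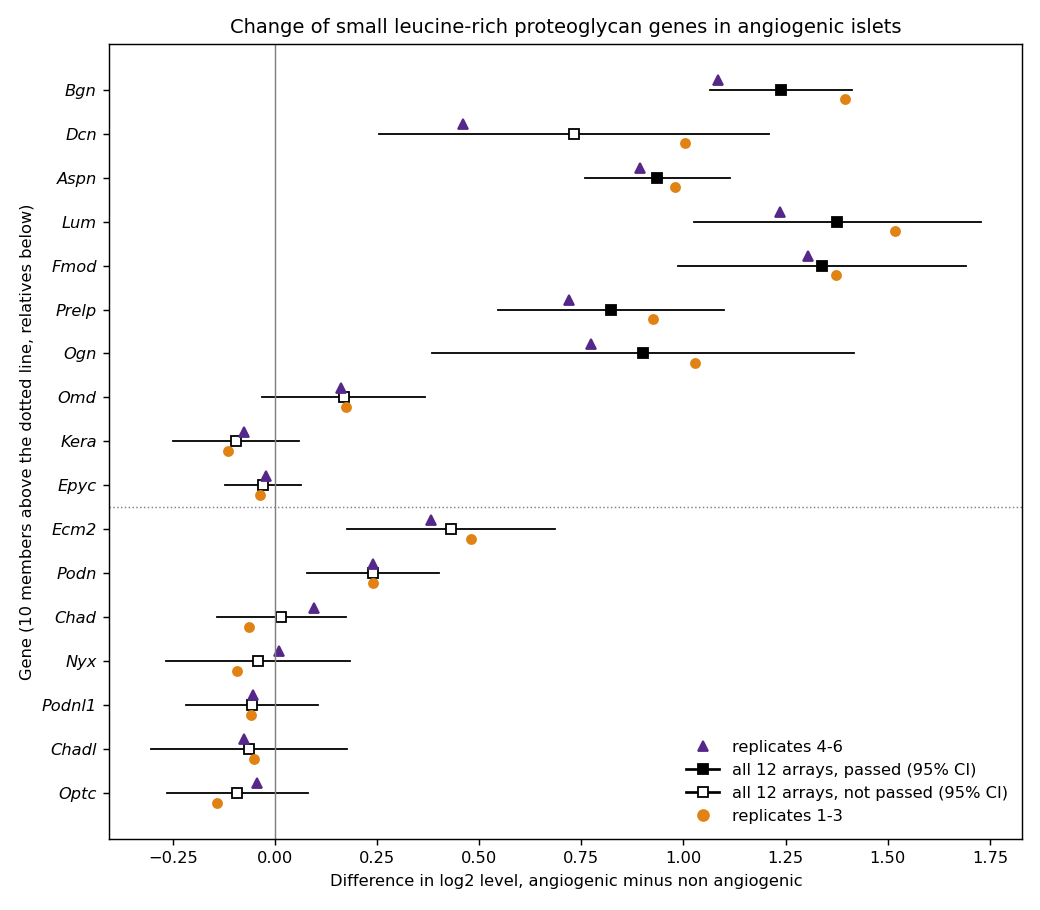
Difference in log2 level, angiogenic minus non angiogenic (x axis), for the 10 genes and, under the dotted line, 7 relatives of the family. Squares with 95% confidence intervals are the fit of all 12 arrays, filled where the adjusted p was under 0.05, triangles are replicates 4 to 6 and circles replicates 1 to 3. For 7 of the 10 genes both sets give a difference well above 0, larger in replicates 1 to 3, and the marks of Omd, Kera and Epyc lie near 0.

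With the set as a blocking term, 7 of the 10 genes were higher in angiogenic islets (5.88% of all genes), Dcn being the gene added. Replicates 4 to 6 alone also gave 7 (3.11% of all genes), as did replicates 1 to 3 alone (2.37% of all genes) and, without adjustment, the unpaired test of the study's methods (7.67% of all genes). The groups did not overlap over 12 arrays, with angiogenic islets higher, for 5 of the 10 genes (2.85% of all genes), and within each set for 7 (4.89% of all genes). Their median difference was 0.75 within replicates 4 to 6 and 0.99 within replicates 1 to 3.

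Whether the change itself differed between the sets was tested as an interaction of group and set. None of the 10 genes passed after adjustment, where 0.00502% of all genes did (limma). At an unadjusted p under 0.05, which 6.41% of all genes reached, Dcn and Bgn changed less in replicates 4 to 6 than in replicates 1 to 3. The change in replicates 4 to 6 minus that in replicates 1 to 3 was -0.54 ± 0.19 (SE) for Dcn, with an adjusted p of 0.736, and -0.31 ± 0.13 for Bgn, with an adjusted p of 0.774 (limma).

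Dcn and the genes that rose did not all change by the same factor in measured signal. Weak signals are compressed on this scale, so unequal factors in signal need not be unequal factors in RNA. For each of the 45 pairs of the 10 genes the log2 ratio within an array was compared between the groups with a two-sided exact permutation test over the 924 ways to split the arrays, whose smallest p is 0.00216, and the p-values were adjusted over the 45. The change in ratio passed for 25 pairs. Of these, 19 set 1 of the other 7 genes against Omd, Kera or Epyc, whose dim and little changed signals make such a ratio repeat the change of its partner, so they add nothing on unequal factors. Among the 21 pairs of the other 7 genes, 6 passed. Lum gained on Dcn, the log2 ratio of Dcn over Lum changing by -0.64 in angiogenic islets (exact permutation adjusted p = 0.00573). Lum over Prelp changed by 0.55 (adjusted p = 0.00573), Lum over Ogn by 0.48 (adjusted p = 0.0339) and Lum over Aspn by 0.44 (adjusted p = 0.0468), all by exact permutation. Bgn likewise gained 0.42 on Prelp (exact permutation adjusted p = 0.0162) and 0.30 on Aspn (exact permutation adjusted p = 0.0205). For Lum over Fmod, which share a collagen binding site, the change in ratio was 0.04 and did not pass (exact permutation p = 0.868). For Dcn over Bgn the change of -0.51 did not pass after adjustment (exact permutation p = 0.0498, adjusted p = 0.0747). These permutations exchanged arrays across the sets, which widens the spread of a ratio with a gene such as Dcn that differs between the sets, and within the sets the change of Dcn over Bgn was -0.62 (replicates 4 to 6) and -0.39 (replicates 1 to 3).

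Most of the 10 genes lie next to each other in the mouse genome. In the RefSeq annotation of GRCm38.p6, Dcn, Lum, Kera and Epyc follow one another, Aspn, Omd and Ogn follow Ecm2, and Prelp and Fmod follow Optc, while Bgn stands alone on the X chromosome. Direct neighbours differed in their measured change. Of these, Kera, Omd and Optc were dim, averaging 4.71, 5.13 and 5.51 in angiogenic islets, where a small change may not be measurable. Lum, with a difference of 1.38, has Kera at -0.10 on the side away from Dcn. Aspn at 0.94 and Ogn at 0.90 enclose Omd at 0.17. Prelp at 0.82 and Fmod at 1.34 both rose, while Optc beside Prelp had -0.09 (adjusted p = 0.706) and Btg2 beyond Fmod had -0.24 (adjusted p = 0.294, both limma). The neighbours of Bgn, Haus7 at 0.04 and Atp2b3 at -0.12, did not pass (adjusted p = 0.894 and 0.595, limma).

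Promoters were set side by side to show what these neighbours look like just before their start sites. RefSeq (GRCm38.p6) windows of 250 bases before the start were found for 8 of the 10 genes, Dcn and Lum being named only. Shown are those of the genes that rose, with Omd, the neighbour between Aspn and Ogn that did not pass. Each is read 5′ to 3′ on the strand of its gene. Bgn is at chrX:73483351-73483600, Fmod at chr1:134037004-134037253, Aspn at chr13:49544193-49544442, Omd at chr13:49582212-49582461 and Ogn at chr13:49607765-49608014, all on the plus strand, and Prelp is at chr1:133921402-133921651 on the minus strand. Capitals mark matches on either strand to 6 short motifs, namely the TATA box (TATAAA), the CCAAT box (CCAAT), the GC box (GGGCGG), the AP-1 site (TGANTCA), the TEAD site (GGAATG) and the SMAD site (CAGAC).
Bgn: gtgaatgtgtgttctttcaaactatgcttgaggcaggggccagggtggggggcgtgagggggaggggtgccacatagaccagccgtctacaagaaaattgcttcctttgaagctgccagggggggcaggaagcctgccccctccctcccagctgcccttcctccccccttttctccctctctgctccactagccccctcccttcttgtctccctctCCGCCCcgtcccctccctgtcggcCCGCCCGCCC
Fmod: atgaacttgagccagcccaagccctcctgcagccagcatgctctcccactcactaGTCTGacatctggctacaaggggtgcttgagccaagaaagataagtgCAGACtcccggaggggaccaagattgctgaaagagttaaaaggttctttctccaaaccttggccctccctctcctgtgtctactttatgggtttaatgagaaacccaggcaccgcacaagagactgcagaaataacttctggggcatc
Prelp: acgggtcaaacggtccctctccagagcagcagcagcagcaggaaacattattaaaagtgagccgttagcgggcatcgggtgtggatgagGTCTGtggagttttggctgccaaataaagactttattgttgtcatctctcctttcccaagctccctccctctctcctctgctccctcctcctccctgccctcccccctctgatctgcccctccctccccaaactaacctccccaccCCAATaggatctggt
Aspn: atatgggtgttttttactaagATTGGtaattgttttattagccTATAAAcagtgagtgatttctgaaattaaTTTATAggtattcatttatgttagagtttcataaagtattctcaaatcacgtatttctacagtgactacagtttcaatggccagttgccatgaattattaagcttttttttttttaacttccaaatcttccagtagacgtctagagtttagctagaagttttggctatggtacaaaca
Omd: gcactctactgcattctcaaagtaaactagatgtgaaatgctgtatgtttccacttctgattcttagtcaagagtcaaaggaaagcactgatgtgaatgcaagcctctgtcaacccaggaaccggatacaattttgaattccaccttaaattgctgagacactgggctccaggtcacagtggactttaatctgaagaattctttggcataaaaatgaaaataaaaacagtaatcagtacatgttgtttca
Ogn: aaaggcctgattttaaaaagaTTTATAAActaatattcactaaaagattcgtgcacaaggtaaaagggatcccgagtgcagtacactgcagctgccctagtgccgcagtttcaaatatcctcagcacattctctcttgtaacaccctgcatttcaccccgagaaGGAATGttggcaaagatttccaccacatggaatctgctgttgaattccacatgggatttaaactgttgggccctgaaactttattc

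The windows differed in composition, and those shown for genes that rose had no motif common to all of them. Lum, which also rose, had no window. Bgn had 64.4% G and C and 3 GC boxes, the last pair overlapping, where 32.7% of 32851 RefSeq windows of this length held a GC box. Prelp had 55.6% G and C with 1 SMAD site and 1 CCAAT box, and Fmod 51.2% with 2 SMAD sites, a motif of 42.2% of all windows. Ogn had 42.0% with an overlapping pair of TATA boxes, 1 on each strand, and 1 TEAD site, and Aspn had 30.0% with 2 TATA boxes and 1 CCAAT box. TATA boxes were in 12.4% of all windows, TEAD sites in 12.6%, CCAAT boxes in 33.8% and AP-1 sites, of which these windows held none, in 6.75%. Omd, with 38.4%, held none of the 6 motifs. A match describes these letters alone and is not a binding site.

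Beyond the 10 genes, no relative of the family passed. Of 8 other small leucine-rich proteoglycans and close relatives, 7 were measured, with a median difference of -0.04. The largest difference was that of Ecm2, a matrix protein with leucine-rich repeats whose gene lies beside Aspn. Ecm2 measured 6.88, 7.22 and 7.51 in angiogenic islets, against 6.43, 6.76 and 7.04 in non angiogenic islets (lowest, median, highest), with overlap. Its difference of 0.43 ± 0.12 (SE) had an adjusted p of 0.0554, and of 0.000363 with the set as a block (limma).

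Most of the collagens that these proteins bind rose as well. Of 12 genes for fibrillar and fibril-associated collagens and collagen VI, 9 were higher in angiogenic islets and 0 lower. Over all genes 3.55% were called higher, and the median difference of the collagens was 0.86. Col1a1, a chain of collagen I, measured 10.35, 10.56 and 10.77 in angiogenic islets, against 8.77, 9.05 and 9.17 in non angiogenic islets (lowest, median, highest), a 2.95-fold difference (adjusted p = 1.45e-07, limma). The other chain, Col1a2, was 2.77-fold higher (adjusted p = 2.70e-08), Col6a3 of the beaded collagen VI 2.26-fold (adjusted p = 5.57e-07) and Col12a1, which decorates collagen I fibrils, 2.22-fold (adjusted p = 4.93e-07, all limma). Col2a1 and Col11a1 of cartilage did not pass. Col5a1, with 0.29, did not pass either (adjusted p = 0.0581), but did with the set as a block (adjusted p = 0.0104, both limma), which made the count 10 of 12. The study's own list was picked on these arrays and holds collagens too, so their direction is not independent evidence.

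Of 26 genes for enzymes that build and sulfate the sugar chains, 3 were higher and 0 lower, where 3.55% of all genes were called higher, and the median difference was 0.04. Chst15, which adds a further sulfate to chondroitin sulfate, was 0.40 ± 0.06 (SE) higher in angiogenic islets (adjusted p = 0.000788, limma). Dse, the epimerase that turns chondroitin into dermatan sulfate, was 0.37 ± 0.09 higher (adjusted p = 0.0294), and Csgalnact1, which starts chondroitin chains, 0.32 ± 0.06 (adjusted p = 0.00789, both limma). Xylt1, a xylosyltransferase that attaches the first sugar to the core protein, had 0.22 ± 0.06 and did not pass (adjusted p = 0.065), but did with the set as a block (adjusted p = 0.00969, both limma).

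Of 16 genes for ligands and receptors that decorin, biglycan or lumican are known to bind, 8 were higher and 0 lower. Over all genes 3.55% were called higher, and the median difference of the 16 genes was 0.21. In every fit that left out 1 array fewer of the 16 were higher, 4 to 6. Tgfb3, a TGF-β ligand, measured 7.94, 8.18 and 8.42 in angiogenic islets, against 6.89, 7.11 and 7.28 in non angiogenic islets (lowest, median, highest), a 2.09-fold difference (adjusted p = 4.28e-06, limma). Lrp1, an endocytic receptor that takes up decorin, was 1.51-fold higher (adjusted p = 6.09e-05), Tgfb1 1.42-fold (adjusted p = 0.0119) and Kdr, the VEGF receptor of endothelial cells, 1.23-fold (adjusted p = 0.0323, all limma). Of the Toll-like receptors of soluble biglycan, Tlr2 had -0.08 and did not pass (adjusted p = 0.73, limma). Tlr4, with 0.25, did not pass (adjusted p = 0.126) except with the set as a block (adjusted p = 0.0361, both limma). Cd14, their co-receptor, was 0.26 higher (adjusted p = 0.0291, limma). Tlr2, Tlr4 and Cd14 were named after their values were seen. Tgfb1 and Tgfb3 stand in the study's own list, picked on these arrays, so their direction is not independent evidence.

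Of 15 proteases known to process or cut these proteins, 6 were higher and 0 lower, where 3.55% of all genes were called higher. The median difference of the proteases was 0.25. The study's own list, picked on these arrays, holds Mmp2, Mmp13, Mmp14, Adamts1 and Adamts5, so their direction is not independent evidence. Mmp2, a gelatinase that cleaves decorin, measured 8.72, 9.58 and 9.97 in angiogenic islets, against 7.64, 8.11 and 8.37 in non angiogenic islets (lowest, median, highest), a 2.70-fold difference (adjusted p = 0.000247, limma). Mmp14, which activates Mmp2, was 1.94-fold higher (adjusted p = 7.19e-06), Adamts5 1.59-fold (adjusted p = 8.80e-05) and Adamts1 1.52-fold (adjusted p = 7.42e-05, all limma). Bmp1, the protease that removes the propeptides of biglycan and osteoglycin, had 0.13 and did not pass (adjusted p = 0.244, limma), and was named after its value was seen.

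**Figure D3:**
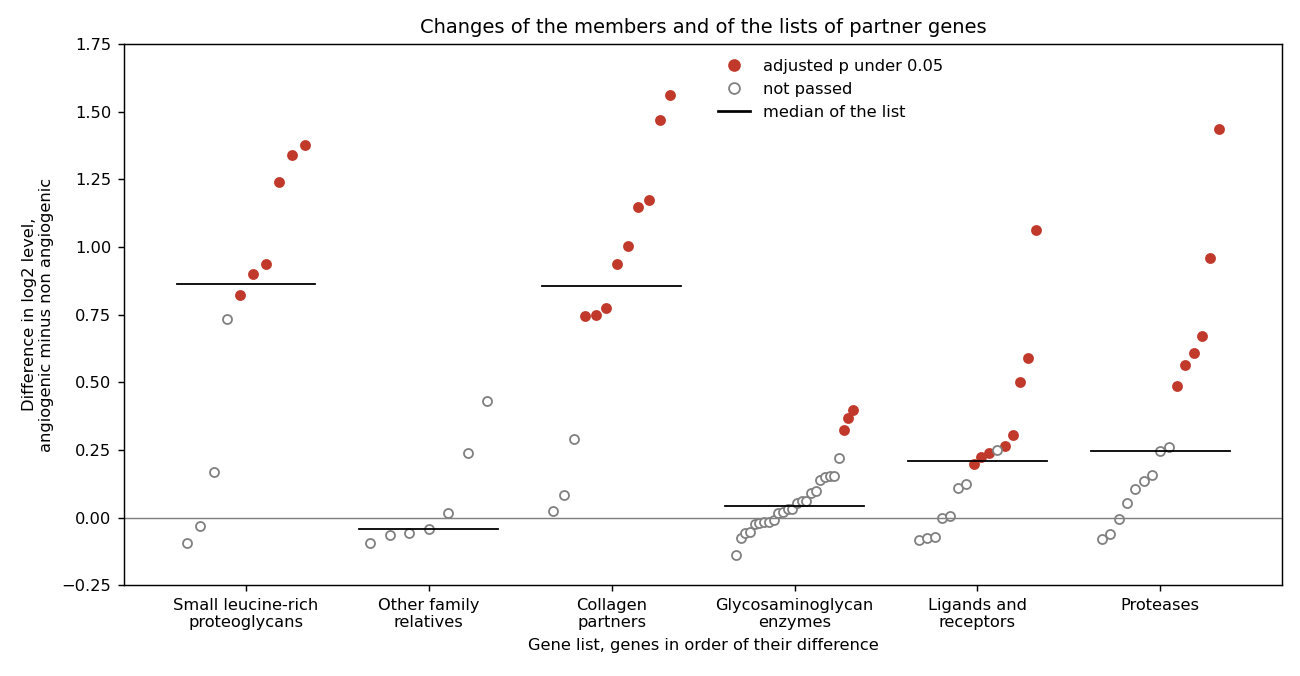
Difference in log2 level, angiogenic minus non angiogenic (y axis), of each gene in the 10 small leucine-rich proteoglycans and in 5 lists of their partners (x axis), genes ordered by their difference within a list. Red points had an adjusted p under 0.05, open points did not, and bars are list medians, which are 0.86 for the 10 genes, 0.86 for collagens, 0.04 for sugar chain enzymes and -0.04 for the relatives.

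Marker lists of stromal cells moved together with these genes. Of 11 fibroblast markers, 10 were higher in angiogenic islets, where 3.55% of all genes were called higher. The mean of the fibroblast markers per array ran from 8.72 to 8.92 in angiogenic and from 7.76 to 8.02 in non angiogenic islets. Col1a1, Col1a2 and Col3a1 stand in both the fibroblast and the collagen list, and Kdr in the endothelial list and that of ligands and receptors. Col2a1 is shared by the collagen list and that of tendon and cartilage. The ductal list shares Krt19 with the mesothelial list and Sox9 with that of tendon and cartilage. Of 10 markers of pericytes and smooth muscle, 9 were higher (means of 8.46 to 8.81 in angiogenic and 7.81 to 7.98 in non angiogenic islets). Of 10 endothelial markers 8 were higher (9.59 to 9.75 in angiogenic, 9.12 to 9.29 in non angiogenic islets), and of 8 macrophage markers 7 (9.02 to 9.42 in angiogenic, 8.59 to 8.84 in non angiogenic islets). The study reports several of these stromal markers as raised on these same arrays, among them Col1a1, Postn, Pdgfrb, Pecam1 and Csf1r. The direction of such markers is therefore not independent evidence. The part of the stromal cells in the change of the 10 genes was not tested. Beta cell markers, which check the labelled tissue, averaged 11.69 to 11.86 in angiogenic and 11.73 to 11.99 in non angiogenic islets, and 0 of 8 passed. With the set as a block 2 of the 8 were lower, Nkx6-1 with a difference of -0.23 (adjusted p = 0.0179) and Slc2a2 with -0.23 (adjusted p = 0.0407, both limma). None of 6 mesothelial markers was higher, and 1, Msln, was lower, to which the block added Upk3b at -0.29 (adjusted p = 0.0465, limma), and 0 of 6 tendon and cartilage markers passed. Ductal markers (0 of 4) and lymph node and lymphatic markers (0 of 4) did not pass either, and of 3 Schwann cell markers 1 was higher.

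The markers of acinar cells, which surround the islets, varied most between arrays. Their mean ran from 8.00 to 11.59 in angiogenic and from 7.80 to 12.74 in non angiogenic islets, and 0 of 7 passed. The non angiogenic array with the highest acinar mean, replicate 4, also had the highest Dcn of its group, 10.88. The one with the lowest acinar mean, replicate 3 at 7.80, had the highest Dcn of non angiogenic replicates 1 to 3, 10.02. These 2 arrays belong to different sets, and Dcn differed between the sets. A part of acinar cells in the spread of Dcn was not tested. Without non angiogenic replicate 4, Dcn was 0.88 higher in angiogenic islets and passed (adjusted p = 0.023, limma). No other fit that left out 1 array gave a pass for Dcn. With the acinar mean as a covariate the Dcn difference was 0.66 (adjusted p = 0.0739, limma).

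**Figure D4:**
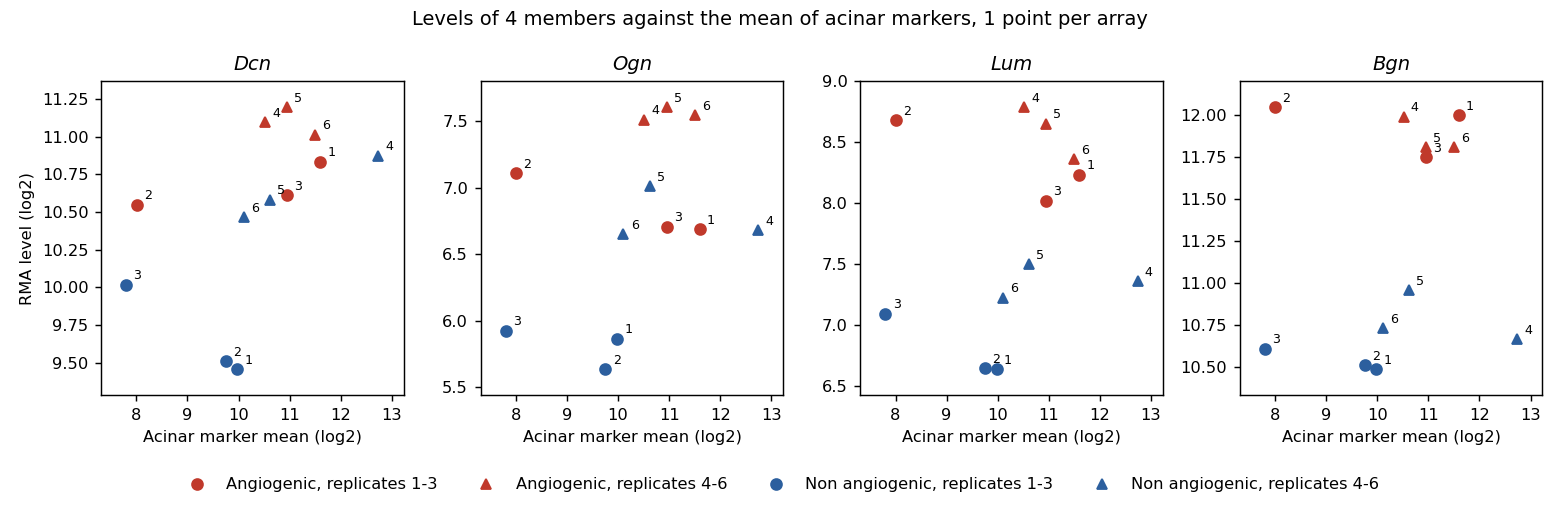
Log2 RMA level (y axis) of Dcn, Ogn, Lum and Bgn against the mean log2 level of 7 acinar markers (x axis), 1 point per array with its replicate number, angiogenic islets in red and non angiogenic islets in blue, replicates 1 to 3 drawn as circles and replicates 4 to 6 as triangles. Bgn and Lum keep the groups apart at every acinar level, while for Dcn and Ogn the red circles and blue triangles share a range.

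After the mean of each group within each set was taken out, the genes whose remaining pattern over the 12 arrays was most like that of Dcn, Bgn, Lum or Aspn, the 4 with means above the median of all genes, were sought among all genes. The nearest were Tmx3 for Dcn (Pearson r = 0.973, Spearman rho = 0.923), Olfr243 for Bgn (r = 0.979, rho = 0.972), 4930426L09Rik for Lum (r = 0.988, rho = 0.993) and Acaa1a for Aspn (r = 0.97, rho = 0.972), each over 12 arrays. These are the highest correlations among all genes over few arrays, and none of these 4 genes passed the comparison of angiogenic and non angiogenic islets.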

How the data were processed

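Total RNA from 12 islet pools was measured on Affymetrix mouse gene arrays. The authors deposited log2 levels for transcript clusters, made per the labels with RMA in Affymetrix Expression Console. Tool versions and scan dates, and whether all arrays were normalized together, were not found in these sources. RMA sets arrays that are normalized together to 1 distribution, so an overall change in RNA content cannot be seen. Of 35556 clusters, 21789 had exactly 1 symbol in the platform annotation, and the brightest was kept for 999 genes with several, which left 19938 genes with no filter on low values. Groups and replicate numbers came from the sample labels.

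Groups were compared with limma 3.58.1 (lmFit and eBayes, R 4.3.3) on 6 against 6 arrays, two-sided and without covariates. The adjustment (Benjamini-Hochberg) covered all genes, and an adjusted p under 0.05 passed. The script was tested on simulated data. Ratios within arrays were compared by exact permutation (scipy 1.17.1). Confidence intervals are at 95%. The number of arrays limits the precision.

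The 10 genes, the partner and marker lists and the split into replicates 1 to 3 and 4 to 6 were chosen with earlier results of these data known. All 10 genes are named, with, in each partner list, up to 4 genes that passed by size of difference and, if there were fewer than 4, the largest one that failed, the 3 genes most like each brighter member, of which the first is printed, and genomic neighbours. Alternatives were the methods' unpaired t-test (unadjusted or adjusted), array weights or a trend in limma, quantile normalization, median centring, dim genes left out, all clusters of a gene averaged, the replicate number or the set as a block, each set alone, an acinar covariate, and leaving out each array. RT-qPCR and tissue stainings were not analysed here.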

Additional observations from a re-analysis of the deposited data

How the results depend on the processing

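The counts over all genes, the 10 genes and the 5 partner lists and the difference of each of the 10 genes were recomputed under 14 alternatives and 12 fits that left out 1 array, and no difference changed sign, median centring and quantile normalization included, which moved the median difference of all genes to -0.039 and -0.016, against -0.021. Ratios, interactions, neighbours, marker lists and single partner genes were not run under all of these. The count of genes higher was 1529 with the methods' t-test unadjusted, 467 with dim genes left out and 1172 with the set as a block, against 708. The count lower was 1385 with that t-test, 107 with every cluster tested, 547 blocked by set, 449 with the replicate block and 66 in replicates 1 to 3 alone, against 189. Of the 10 small leucine-rich proteoglycans, 3 passed with dim genes left out, since fewer were tested. Among the relatives 2 passed with the unadjusted t-test and 1 with array weights, the replicate block, the set as a block, or either set alone, against 0. Of the sugar chain enzymes 0 were higher in replicates 1 to 3 alone and 1 was lower with the unadjusted t-test. Of the ligands and receptors 5 were higher with median centring or the adjusted t-test, 4 with dim genes left out, every cluster tested or replicates 4 to 6 alone, and 3 in replicates 1 to 3 alone, against 8. Of the proteases 3 were higher with dim genes left out, where fewer were tested, against 6. Other causes were not tested.

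Dcn passed with array weights (0.73, adjusted p = 0.0452, limma), with the unadjusted t-test (0.73), with the replicate block (0.73, adjusted p = 0.0037, limma), blocked by set (0.73), in replicates 1 to 3 alone (1.0) and in replicates 4 to 6 alone (0.46). Ogn no longer passed with quantile normalization (0.89, adjusted p = 0.0723), the adjusted t-test (0.90, adjusted p = 0.143), every cluster tested (0.90, adjusted p = 0.116, more features) or the acinar covariate (0.85, adjusted p = 0.0574, limma).

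Leaving out 1 array gave 553 to 715 genes higher, the fewest without angiogenic replicate 4. It gave 110 to 178 genes lower, the fewest without angiogenic replicate 6. Of the 10 genes 5 to 7 were higher, of relatives 0 to 1, of collagens 9 to 10, of sugar chain enzymes 2 to 4, of ligands and receptors 4 to 6 and of proteases 6 to 6. The difference ranged from 0.59 to 0.88 for Dcn, 0.77 to 1.04 for Ogn, 1.20 to 1.42 for Fmod, 1.29 to 1.46 for Lum and 0.76 to 0.92 for Prelp.

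Replicate numbers were not taken to pair the arrays, because the deviations of same-numbered arrays correlated at 0.028 for replicate 3 and up to 0.538 for the others, and 2 of 6 numbers correlated best with their own. With the replicate block 7 of the 10 genes were higher.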
